A study of Mus musculus with 30 samples.

Results

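The genes described are 6 Krüppel-like factors, Klf2, Klf3, Klf4, Klf5, Klf6 and Klf9, which were picked by name as 6 of the 22477 genes in the deposited expression table. Their levels were read in RNA-seq of polyadenylated RNA from mouse secondary iPSCs, which are pluripotent cells whose genome already holds doxycycline (dox)-inducible OSKM transgenes (Oct4, Sox2, Klf4 and c-Myc). Every group carried those transgenes, a GFP reporter placed at 1 Nanog allele and a nuclear RFP that is always expressed. The 30 samples formed 15 conditions of 2 replicates each, and the labels do not say whether replicates were separate cultures, while the study describes the replicates of its experiments in general as biological.

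In 7 of the conditions the cells were kept in N2B27 medium without 2i (the GSK3 inhibitor CHIR99021 and the MEK inhibitor PD0325901) and without LIF, and RNA was taken at 0, 24, 36, 48, 60, 72 and 96 h of this 2i/LIF withdrawal. The 0 h cells were the iPSCs in 2i/LIF. In the other 8 conditions, cells from 0, 24, 48 or 96 h of withdrawal were re-seeded for 48 h in medium with serum and LIF, and dox, which switches on the transgenes, was either left out (–dox) or added at 2 µg/ml (+dox). The iPSCs were maintained on CF1 mouse embryonic fibroblast (MEF) feeders. The methods give gelatin for withdrawal and CF1 MEFs for re-seeding in the colony-forming assay, without saying on what the RNA-seq cells grew.

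Levels are given in FPKM, fragment counts scaled to transcript length and library size, so that different genes can be compared. The authors' table combines both replicates into 1 value per condition and gives no counts, so the depth is unknown, and the values come without replicate error or any test. Neighbours in an order of levels therefore cannot be judged against replicate error. A difference was counted when the values were at least 2-fold apart and the higher reached 1 FPKM. The count among the 6 genes stands beside the percentage of all tested genes that met the rule. That percentage was not counted for comparisons at equal times since withdrawal, and alternative settings have it only where given. Counts over other lists are given as descriptions. Per condition the table summed to between 603278 and 832607 FPKM, and median-ratio scaling factors ran from 0.990 to 1.03. All 6 genes were at 1 FPKM or more in every condition.

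Krüppel-like factors are transcription factors that bind GC-rich and CACCC-type DNA through a trio of C-terminal zinc fingers, and differ in their N-terminal activating or repressing regions. Klf2, Klf4 and Klf5 help hold mouse pluripotent cells in the naive state, with overlapping binding sites and partly redundant functions. Klf4 is a target of LIF–Stat3 signalling and one of the reprogramming factors, whereas Klf2 is linked to MEK inhibition. Klf3 is mainly a repressor that recruits CtBP, Klf6 is a broadly expressed activator that responds to growth signals and injury, and Klf9 is a repressor that responds to glucocorticoid and thyroid hormones.

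In the Gencode annotation of mm10, the genes lie apart on 6 chromosomes. Klf2 is at chr8:72319033-72321656 on the plus strand, Klf3 at chr5:64803388-64832901 on the plus strand and Klf4 at chr4:55527143-55532466 on the minus strand. Klf5 is at chr14:99298691-99315036, Klf6 at chr13:5861482-5870394 and Klf9 at chr19:23141226-23168134, all on the plus strand. Of these loci, that of Klf3 shared exonic sequence, 404 bp, with another gene of the table, Gm20033 on the opposite strand. Gm20033 was listed at between 0 and 1.34 FPKM, and whether the authors counted by strand is not given in the sources used here.

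The promoters of 3 genes are printed because their genes had the widest downward and upward ranges of the set during withdrawal, Klf4 and Klf2 downward and Klf6 upward. They are RefSeq sequences of build GRCm38.p6, shown 5′ to 3′ on the gene's strand and cut before the first annotated transcript start, with GC boxes (GGGCGG on either strand) in capitals. Klf2 is shown from chr8:72318812-72319032, plus strand, Klf4 from chr4:55532476-55532725, minus strand, and Klf6 from chr13:5861239-5861481, plus strand.
Klf2: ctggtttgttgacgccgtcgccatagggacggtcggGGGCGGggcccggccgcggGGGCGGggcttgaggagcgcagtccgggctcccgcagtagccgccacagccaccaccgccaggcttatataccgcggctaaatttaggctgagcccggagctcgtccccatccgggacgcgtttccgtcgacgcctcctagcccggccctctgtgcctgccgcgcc
Klf4: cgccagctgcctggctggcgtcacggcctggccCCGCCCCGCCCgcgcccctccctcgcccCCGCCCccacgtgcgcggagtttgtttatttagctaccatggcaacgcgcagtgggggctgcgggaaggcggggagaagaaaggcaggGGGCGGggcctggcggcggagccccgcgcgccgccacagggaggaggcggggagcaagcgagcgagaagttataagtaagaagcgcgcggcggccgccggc
Klf6: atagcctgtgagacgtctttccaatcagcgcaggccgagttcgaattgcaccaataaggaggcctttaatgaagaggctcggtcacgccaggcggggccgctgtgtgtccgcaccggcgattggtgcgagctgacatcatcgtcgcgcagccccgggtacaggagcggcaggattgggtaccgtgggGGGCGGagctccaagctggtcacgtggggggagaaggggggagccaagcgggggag
These stretches lie upstream of the first exon, and GC bases made up 71.5% of the 221 bases of Klf2, 74.0% of the 250 bases of Klf4 and 64.2% of the 243 bases of Klf6. Over the full 250 bases before the start, Klf2, Klf3, Klf4, Klf6 and Klf9, 5 of the 6 genes, had a RefSeq entry, and 32.7% of all 32851 windows of that length held a GC box. The window of Klf3 held 6 GC boxes, that of Klf4 held 4, that of Klf2 held 2, that of Klf6 held 1 and that of Klf9 held 0.

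Other short motifs, searched on both strands, set the windows apart in a different order. CACCC, a form of the site that Krüppel-like factors bind themselves, was found in 52.0% of windows, 5 times in Klf3, once in Klf2 and once in Klf9. CCAAT was found in 33.9% of windows, 4 times in Klf6 and 3 times in Klf9, and in none of the windows of Klf2, Klf3 and Klf4. The STAT motif TTCNNNGAA was present in 7.02% of windows and, among the 5 windows searched, in that of Klf9. CACGTG, found in 6.02% of windows, had 1 match each in Klf4 and Klf6. A match is a description of the letters in the window and does not show that a factor binds there.

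The first question was how the genes described behaved as cells left the naive state. Klf2, Klf4 and Klf5 were far lower by the end of withdrawal, Klf6 was higher, and Klf3 and Klf9 stayed within 2-fold of their 0 h level at 96 h. At 96 h, 3 of the 6 genes were at least 2-fold lower than at 0 h, against 16.4% of all tested genes, and 1 of the 6 was at least 2-fold higher, against 16.8%. The median log2 ratio of the 6 was -1.83, with -0.02 over all genes tested. Between any pair of timepoints, 5 of the 6 differed by 2-fold or more, which 60.7% of all genes that reached 1 FPKM also did, so that count is near the background. Klf9 was the exception.

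Klf2, a naive pluripotency factor, had the highest level of the set in the iPSCs. It stood at 197 FPKM at 0 h and at 69.5, 19.3, 13.8, 9.07, 8.67 and 5.78 FPKM after 24, 36, 48, 60, 72 and 96 h. Each timepoint was below the one before it, and the level at 96 h was 2.94% of that at 0 h, a 34.1-fold difference (log2 ratio -5.09). The largest single step of Klf2 was the 3.61-fold one from 24 to 36 h, after a 2.84-fold step over the first 24 h.

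Klf4, the family member in the OSKM cocktail, was lower still relative to its start. It stood at 92.7 FPKM at 0 h, followed by 23.3, 4.32, 3.25, 1.52, 1.69 and 2.07 FPKM at the 6 later timepoints. The minimum at 60 h was 1.64% of the 0 h level, a 61.0-fold difference and the widest range of the 6 genes during withdrawal. From 36 h on, Klf4 had the lowest level of the 6 genes at every timepoint, and its 60, 72 and 96 h values lay too close together and too near 1 FPKM for their order to be read. Like Klf2, Klf4 had its largest step from 24 to 36 h, where it was 5.40-fold lower.

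Klf5, which acts in the inner cell mass and trophectoderm as well as in naive pluripotent cells, had a lesser range. Its level was 78.1 FPKM at 0 h, followed by 39.5, 14.1, 16.7, 6.01, 7.76 and 11.0 FPKM at the 6 later timepoints. The course had a pair of steps of similar size, 2.81-fold from 24 to 36 h and 2.78-fold from 48 to 60 h, separated by values close to each other. The 96 h value was 7.08-fold below that of 0 h (log2 ratio -2.82), while the 60 h value was 13.0-fold below it.

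Klf6 went the other way. Its level was 13.0 FPKM at 0 h, followed by 9.55, 11.1, 16.6, 27.2, 36.1 and 36.2 FPKM at the 6 later timepoints. The first 3 values lay within 1.36-fold of each other, and the 96 h value was 2.79-fold above that of 0 h (log2 ratio 1.48) and 3.79-fold above that of 24 h. No single step of Klf6 reached 2-fold, the largest being 1.64-fold from 48 to 60 h. From the lowest of the 6 at 0 h, Klf6 came to have the highest value at 72 and 96 h.

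Klf3 and Klf9, the 2 repressors of the set, varied least. Klf3 stood at 52.7 FPKM at 0 h, followed by 34.5, 22.8, 22.5, 31.1, 30.6 and 30.8 FPKM at the 6 later timepoints, a shallow dip with a highest-to-lowest ratio of 2.34. Klf9 stood at 42.4 FPKM at 0 h, followed by 42.1, 34.1, 34.3, 28.2, 32.1 and 23.6 FPKM at the 6 later timepoints, with a ratio of 1.80. The level at 96 h was 58.5% of that at 0 h for Klf3 and 55.7% for Klf9.

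**Figure D1:**
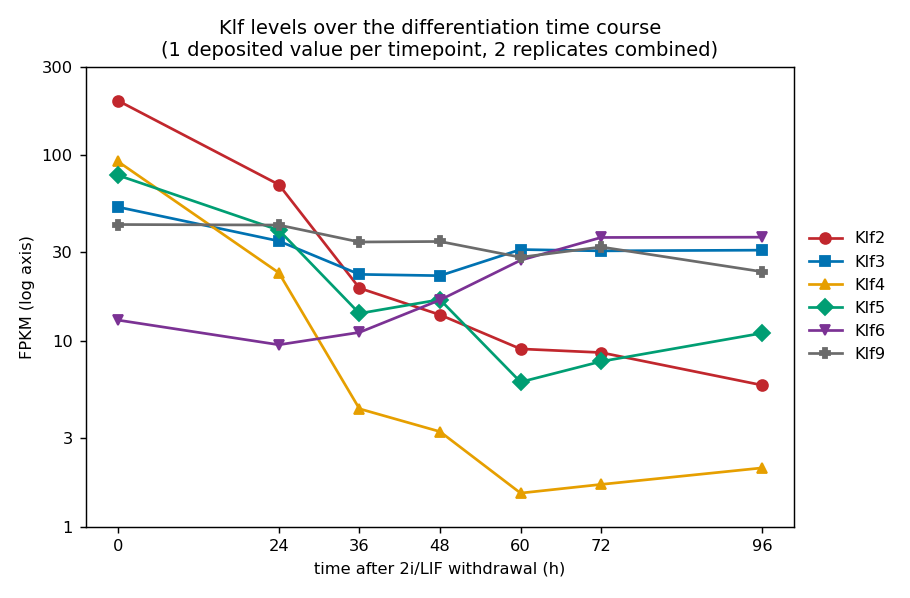
The FPKM of each of the 6 Klf genes (log axis) is plotted against hours of 2i/LIF withdrawal, with 1 point per timepoint that combines 2 replicates and no error bars. Klf2, Klf4 and Klf5 run downward from between 78.1 and 197 FPKM, Klf6 runs upward from 13.0 to 36.2, and Klf3 and Klf9 stay between 22.5 and 52.7.

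The steps between neighbouring timepoints show when the levels moved apart. Counted in either direction, 2 of the 6 genes (Klf2 and Klf4) differed by 2-fold from 0 to 24 h, as did 23% of all genes. From 24 to 36 h the count was 3 of 6 (Klf2, Klf4 and Klf5), against 11.7%. It was 0 of 6 from 36 to 48 h, against 4.79%, and 2 of 6 (Klf4 and Klf5) from 48 to 60 h, against 9.24%. No member passed from 60 to 72 h or from 72 to 96 h, where 5.24% and 10.1% of all genes did. In each of these cases the later value was the lower one.

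The make-up of the summed level of the 6 genes therefore differed between the ends of the course. The summed level of the 6 genes was 475.8 FPKM at 0 h and 218.5 at 24 h, and lay between 103.1 and 116.9 at the later timepoints. Klf2, Klf4 and Klf5 together made up 77.3% of that sum at 0 h, and 60.5%, 35.6% and 31.5% of it at 24, 36 and 48 h. At 60, 72 and 96 h they made up 16.1%, 15.5% and 17.2%. Klf6 alone accounted for 2.73% of the sum at 0 h and 33.1% at 96 h, and Klf3 for 11.1% and 28.1%. These shares do not cover the whole family, as the 11 other Klf genes summed to 116.1 FPKM at 0 h and 125.5 at 96 h.

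**Figure D2:**
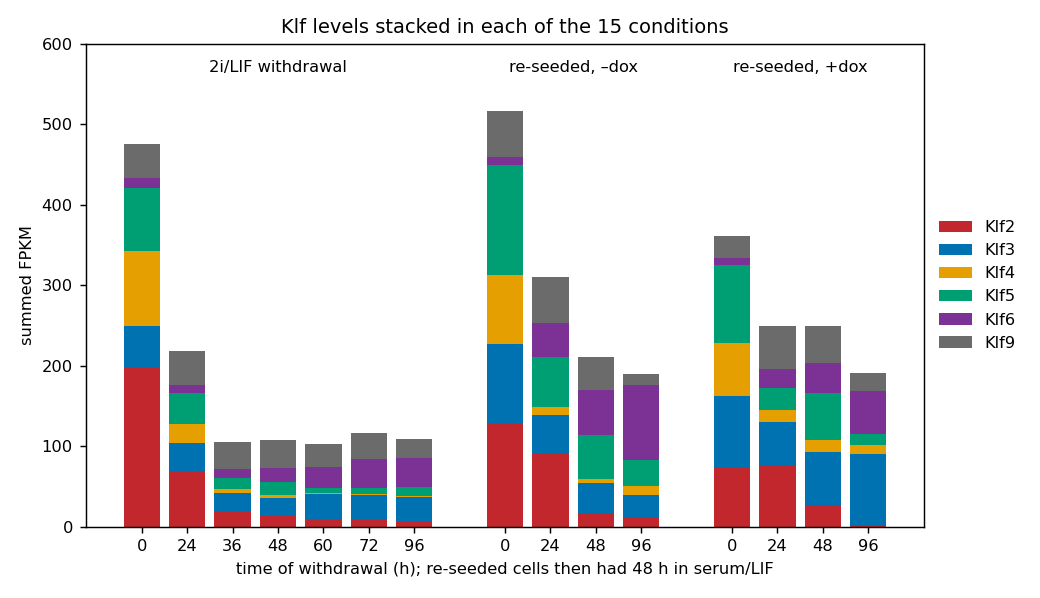
Bars give the summed FPKM of the 6 Klf genes in each of the 15 conditions, split by gene, from 1 value per gene and condition. The Klf2, Klf4 and Klf5 segments fill 77.3% of the 0 h bar and 17.2% of the 96 h bar. Among re-seeded cells they are largest in those from 0 h, which had no withdrawal.

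Fibroblast markers were high in the 0 h sample that these ratios start from, and whether they came from feeders was not tested. The 16 fibroblast genes, led by Col1a1 at 229 FPKM and Col3a1 at 201 FPKM, summed to 904 FPKM at 0 h. At the later timepoints they summed to between 50.4 and 143 FPKM, and Acta2 alone stood at 97.9 FPKM at 96 h. Without Acta2, the other 15 summed to 895 FPKM at 0 h, 90.1 at 24 h and between 30.9 and 53.1 after that. From 0 to 24 h, 14 of the 16 were 2-fold lower and 2 were higher. In the re-seeded conditions the list summed to between 21.3 and 448 FPKM –dox and between 31.1 and 245 FPKM +dox. None of its genes was at 0 during withdrawal, and among the re-seeded conditions Lum was at 0 from 0 h –dox and 48 h +dox and Twist2 from 0 h –dox. In the 0 h –dox cells, with the list at 21.3 FPKM, Klf2 stood at 129, Klf4 at 84.8 and Klf5 at 137 FPKM. Klf3 stood at 98.3, Klf6 at 9.73 and Klf9 at 56.9 FPKM. Those cells also differ from the 0 h sample in medium and time in culture. With 24 h in place of 0 h as the start, 3 of the 6 genes were again lower at 96 h, against 16.3% of all genes, and 1 was higher, against 20.5%. In bulk RNA, fewer cells of a type and less RNA per cell cannot be told apart.

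Markers of simple epithelium were also higher late in withdrawal. The 6 genes of that list summed to 246 FPKM at 0 h, 407 at 36 h and 1421 at 96 h. Most of the 36 h sum was Cdh1, at 159 FPKM, and Epcam, at 153 FPKM. Krt8 stood at 12.8, 9.18 and 272 FPKM at 0, 36 and 96 h. Krt18, an intermediate filament keratin, stood at 11.4, 38.8 and 670 FPKM. At 96 h, 4 of the 6 genes were at least 2-fold higher than at 0 h. The part of such cells in the level of Klf6 was not tested. Endothelial markers, of interest because Klf2 is a flow-responsive gene of endothelium, were mostly near 0 during withdrawal. Of the 7, only Pecam1, which pluripotent cells also express, and Tek reached 1 FPKM at 0 or 96 h, and Emcn was at 0 at 6 of the 7 timepoints.

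The rest of the family gave a mixed picture. Of the 11 other Klf genes in the table, 7 could be compared between 96 and 0 h. Klf7 was 2-fold higher, at 4.33 against 0.787 FPKM, and Klf8 and Klf15 were 2-fold lower, at 1.03 against 15.9 and 1.11 against 9.83 FPKM. The other 4 stayed within 2-fold, Klf12 was under 1 FPKM at both times, and Klf1, Klf14 and Klf17, an erythroid, an imprinted and a germline-associated factor, were under 1 FPKM in every condition. Their median log2 ratio was 0.35. Klf10, a TGF-β-induced repressor and the highest of these genes at 0 h, had a dip to 15.8 FPKM at 24 h, between 45.3 FPKM in the iPSCs and 57.9 FPKM after 96 h.

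The Sp genes, close relatives with the same type of zinc fingers, included 5 that could be compared. Sp5, a Wnt target, stood at 26.7 FPKM at 0 h, 0.185 at 24 h and 3.10 at 96 h, and Sp2 at 27.5 and 12.6 FPKM at 0 and 96 h. None of the 5 was 2-fold higher, and Sp1, Sp3 and Sp4 were within 2-fold. The counts of lower genes were 3 of 6 among the genes described, 2 of 7 among the other Klf genes and 2 of 5 among the Sp genes. Lists this short do not allow a difference between them to be read.

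**Figure D3:**
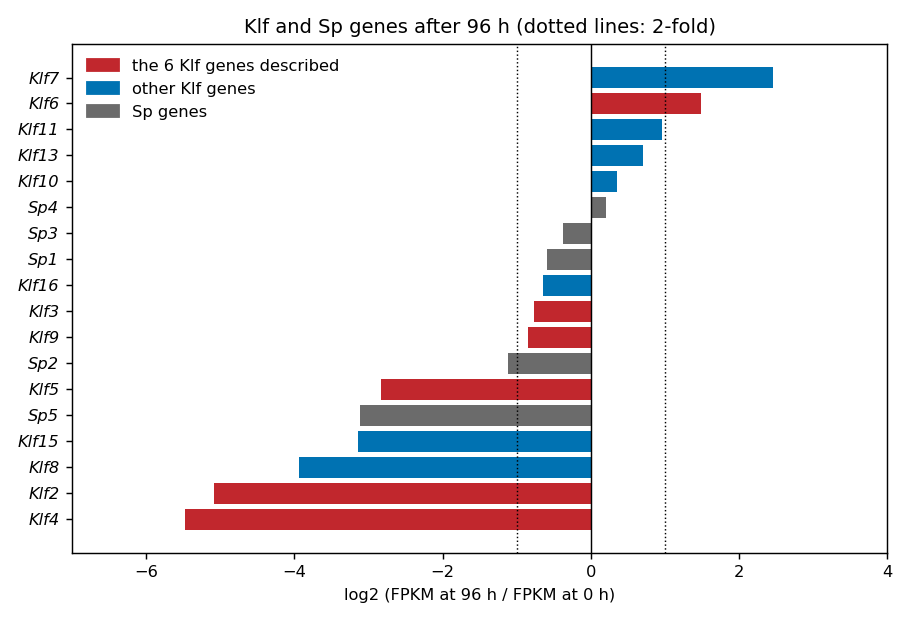
Bars give the log2 ratio of FPKM at 96 h to FPKM at 0 h for each Klf and Sp gene that reached 1 FPKM in either and was above 0 in both. Klf4 and Klf2 lie farthest below 0, at -5.48 and -5.09, and Klf6, at 1.48, is second to Klf7 above it.

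Genes of the pathways around these factors were read from lists of textbook members. All 12 naive pluripotency genes, among them Nanog and Esrrb, were at least 2-fold lower at 96 h than at 0 h (median log2 ratio -5.86), as were 2 of the 3 core pluripotency genes. Of 9 genes of LIF–Stat3 signalling, the input to Klf4, 5 were lower and 1 was higher. Stat3 itself stood at 30.7 FPKM at 0 h, 11.2 at 36 h and 11.6 at 96 h, and its feedback inhibitor Socs3 at 43.5, 5.32 and 7.70. Of 9 ERK response genes, the pathway that the MEK inhibitor blocks, 6 were higher and 2 lower at 96 h, and 6 were 2-fold higher at 24 h. Their sum did not stay up, at 165 FPKM at 0 h, 295 at 36 h and 92.0 at 96 h.

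Immediate early genes, the class whose growth-signal response Klf6 shares, were higher in 6 of the 9 that could be compared and lower in 0. Of 6 glucocorticoid response genes, the hormone input to Klf9, 2 were higher and 1 was lower. Of the cell type lists, formative pluripotency genes were higher in 5 of 6, neurectoderm genes in 4 of 5 and extraembryonic endoderm genes in 1 of 3, with 0 lower in each. The formative list had its highest sum, 1157 FPKM, at 36 h, between 61.6 at 0 h and 192 at 96 h. Trophoblast genes were higher in 2 of 4 and lower in the other 2, and mesoderm genes were higher in 1 of 3 and lower in 2. These lists are set beside the Klf genes as values of the same samples.

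The second question was what the genes described did when cells returned to serum/LIF without the transgenes. Starting cells and re-seeded cells differ in medium, in time in culture and possibly in feeders, and the share of each in a difference cannot be told apart. Over the 4 start times, 6 of the 24 ratios of –dox to the timepoint of re-seeding were 2-fold or more higher and 1 was lower, with the percentages over all genes given by start time. Klf6 and Klf5 made up most of the higher ones.

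In cells re-seeded from 0 h, which compares serum/LIF with 2i/LIF, 0 of the 6 genes were 2-fold higher and 0 were lower, where 12% and 10.1% of all genes were. Klf2 was 1.52-fold lower in serum/LIF, at 129 FPKM, while Klf5 was 1.75-fold and Klf3 1.87-fold higher, at 137 and 98.3 FPKM. Klf5, and not Klf2, had the highest level of the set in these cells. The fibroblast list summed to 21.3 FPKM after and 904 before re-seeding, with 15 of its 16 genes 2-fold lower and 0 higher. The part of such cells in these levels was not tested.

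From 24 h, 1 of the 6 was higher (Klf6) and 1 lower (Klf4), with backgrounds of 14.9% and 10.6%. Klf6 stood at 43.2 FPKM after re-seeding, 4.52-fold above the 9.55 FPKM of the starting cells. Klf4 stood at 10.4 FPKM, 2.23-fold below the 23.3 FPKM it started from, in medium that held LIF. At the equal time of 72 h in continued withdrawal, Klf4 stood at 1.69 FPKM, so the re-seeded value was the higher one. Klf2 stood at 90.9 FPKM after re-seeding and 69.5 FPKM before, which is within 2-fold. The simple epithelium list summed to 798 FPKM after and 236 before re-seeding and the trophoblast list to 43.3 and 5.15 FPKM, and their part in these levels was not tested.

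From 48 h, 2 of the 6 (Klf5 and Klf6) were higher and 0 were lower, with backgrounds of 15.3% and 11.5%. Klf5 stood at 55.1 FPKM, 3.30-fold above the 16.7 FPKM of its start, and Klf6 at 55.8 FPKM, 3.36-fold above. Klf2 and Klf4 stayed low, at 17.2 and 4.68 FPKM, each within 2-fold of the starting level. The simple epithelium list summed to 2401 FPKM after re-seeding and 467 before, with 4 of its 6 genes higher, and the trophoblast list to 37.1 and 4.94 FPKM, with 4 of 4 higher. The 3 extraembryonic endoderm genes and the 3 mesoderm genes that could be compared were also higher. Hand1 is on both the mesoderm and the trophoblast list and counts in each. The part of such cells in these levels was not tested.

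From 96 h, 3 of the 6 (Klf4, Klf5 and Klf6) were higher and 0 were lower, with backgrounds of 12.4% and 11.2%. Klf4 stood at 11.4 FPKM, 5.50-fold above a starting value of 2.07 FPKM, yet at 12.3% of its 0 h level. Klf5 stood at 32.2 FPKM, 2.92-fold above its start. Klf6 reached 92.9 FPKM, its highest value in the 15 conditions and 48.9% of the summed level of the 6 genes. In the same cells the fibroblast list summed to 448 FPKM, of which Acta2 made up 255. The simple epithelium list summed to 4322 FPKM and the trophoblast list to 296 FPKM. All 3 sums were the highest of the re-seeded conditions, and the part of such cells in these levels was not tested.

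At equal times since the start of withdrawal, cells that had gone 48 h without and then 48 h with serum/LIF can be set beside cells left for 96 h. Klf5 stood at 55.1 FPKM in the former and 11.0 in the latter. Klf2 stood at 17.2 and 5.78 FPKM, and Klf4 at 4.68 and 2.07 FPKM. Klf3 (36.9 and 30.8 FPKM), Klf6 (55.8 and 36.2 FPKM) and Klf9 (41.5 and 23.6 FPKM) were less than 2-fold apart. The median log2 ratio of the 6 was 0.99, with -0.003 over all genes tested. The percentage of all genes at least 2-fold apart was not counted for this comparison.

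Across the –dox conditions, 5 of the 6 genes kept 1 direction with the start time. Klf2 (129, 90.9, 17.2 and 10.6 FPKM from 0, 24, 48 and 96 h) and Klf5 (137, 61.8, 55.1 and 32.2 FPKM) were lower with each later start. Klf6 was higher with each later start, at 9.73, 43.2, 55.8 and 92.9 FPKM. Klf3 was also lower with each later start, at 98.3, 47.4, 36.9 and 29.0 FPKM, as was Klf9, at 56.9, 56.7, 41.5 and 13.7 FPKM, although the first 2 values of Klf9 were nearly equal. Klf4 had its minimum at the 48 h start, with 84.8, 10.4, 4.68 and 11.4 FPKM.

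**Figure D4:**
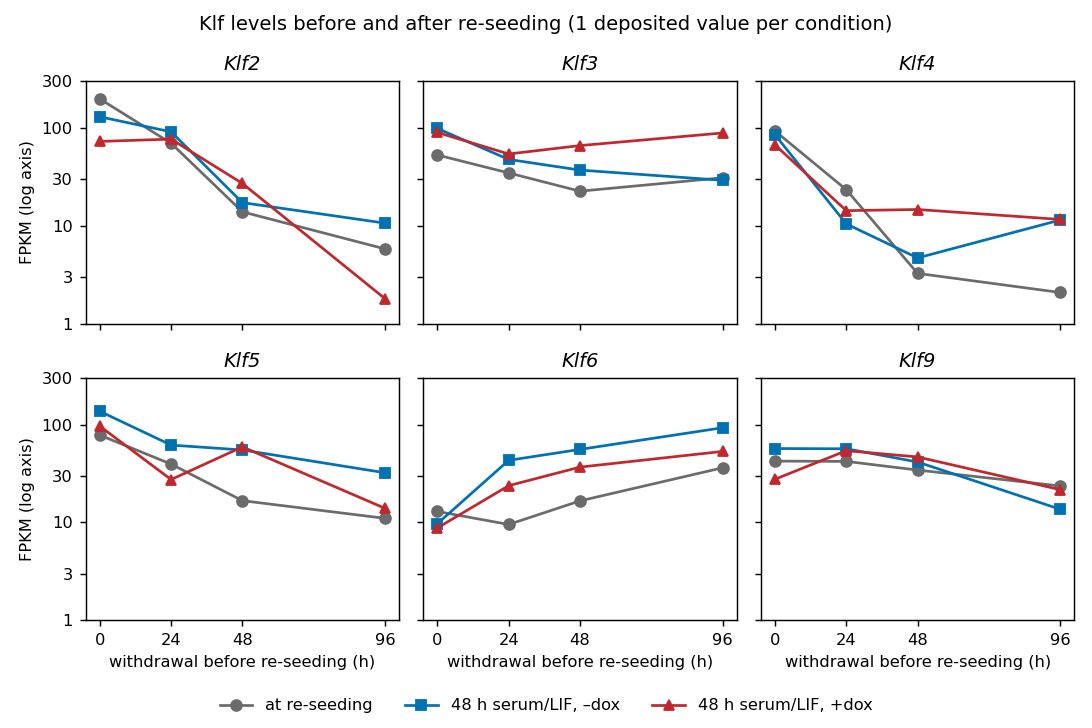
For each gene, FPKM (log axis) is plotted against hours of withdrawal before re-seeding, for the starting cells and for the cells after 48 h in serum/LIF –dox or +dox, each point being 1 combined value. Klf6 lies above its starting level in all re-seeded cells except those from 0 h, and Klf2 is lowest from 96 h in all 3 series, at 5.78, 10.6 and 1.80 FPKM.

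The third question was how the genes described answered to dox. Klf4 is itself a transgene, and its FPKM sums the endogenous gene and any transgene reads that map to it, which the table does not separate. In the conditions labelled +dox, Klf4 stood at 66.7, 14.2, 14.6 and 11.6 FPKM from 0, 24, 48 and 96 h, against 84.8, 10.4, 4.68 and 11.4 FPKM in those labelled –dox. It was 2-fold higher in the +dox cells from 48 h alone, where the ratio was 3.12, and from 96 h the values differed by 1.01-fold. From 0 h the condition labelled +dox was the lower one, by 1.27-fold. At 3 of the 4 start times the level of Klf4 was thus within 2-fold between the labels, and +dox and –dox are used here as the labels give them. Of the other OSKM genes, Myc had a lower value with dox from every start, by 1.31-, 1.98-, 1.92- and 1.60-fold, none of which reached 2-fold. Pou5f1 (Oct4) was 1.18-, 1.23-, 2.80- and 3.78-fold higher with dox in that order, and Sox2 was 1.84-fold lower from 0 h and 1.17-, 2.02- and 1.20-fold higher at the later starts. The values of Myc, Pou5f1 and Sox2 may likewise include transgene reads, which are not separated.

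Over the 4 start times, 2 of the 24 ratios of +dox to –dox were 2-fold or more higher and 4 were lower, again set by start time against all genes. From 0 h, 0 of the 6 genes were higher and 1 was lower (Klf9), where 3.62% and 5.61% of all genes were. Klf9 stood at 27.7 FPKM +dox and 56.9 FPKM –dox, which is 2.06-fold and just past the threshold. All 6 genes had a lower value with dox from this start, with log2 ratios between -0.14 and -1.04.

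From 24 h, 0 of the 6 were higher and 1 was lower (Klf5), where 2.87% and 3.4% of all genes were. Klf5 stood at 27.5 FPKM +dox and 61.8 FPKM –dox, 2.25-fold lower. Klf6 was next, 1.81-fold lower with dox at 23.8 against 43.2 FPKM. The trophoblast list summed to 25.2 FPKM +dox and 43.3 –dox and the simple epithelium list to 615 and 798 FPKM, and their part in this was not tested. Klf2, Klf3 and Klf9 differed by less than 1.2-fold.

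From 48 h, 1 of the 6 was higher (Klf4) and 0 were lower, where 6.56% and 6.46% of all genes were. Klf3 was 1.78-fold higher at 65.7 against 36.9 FPKM and Klf2 1.57-fold higher at 27.0 against 17.2 FPKM, both short of the threshold. Of the 11 naive pluripotency genes that could be compared at this start, 9 were 2-fold higher with dox and 0 were lower. Klf5, at 59.2 against 55.1 FPKM, differed by 1.07-fold. Of the 7 endothelial markers, the 3 that could be compared were higher with dox. Tek stood at 12.5 against 1.03 FPKM, Tie1 at 1.20 against 0.0251, and Pecam1, which pluripotent cells also express, at 11.3 against 2.05. Cdh5 and Kdr, under 1 FPKM in both conditions, had lower values with dox, and Emcn and Erg were at 0. The simple epithelium list summed to 951 FPKM +dox and 2401 –dox, and the part of these cell types in the values was not tested.

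From 96 h, 1 of the 6 was higher (Klf3) and 2 were lower (Klf2 and Klf5), where 6.67% and 11.1% of all genes were. Klf3 stood at 88.4 FPKM +dox and 29.0 –dox, 3.04-fold higher, and had the highest level of the 6 genes with dox. Klf2 stood at 1.80 FPKM +dox and 10.6 –dox, 5.90-fold lower and its lowest value of the 15 conditions. Klf5 stood at 13.96 FPKM +dox and 32.2 –dox, 2.31-fold lower. The fibroblast list summed to 245 FPKM +dox and 448 –dox in these cells, most of it Acta2, and its other 15 genes to 52.3 and 192 FPKM. The simple epithelium list summed to 2158 and 4322 FPKM and the trophoblast list to 93.2 and 296 FPKM, with 5 of 6 trophoblast genes 2-fold lower with dox. Of the endothelial markers, Cdh5 stood at 0.776 FPKM +dox and 13.1 –dox and Tek at 3.15 and 0.361 FPKM. The part of these cell types in the differences was not tested.

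Klf6 had a lower value with dox at each of the 4 start times, with log2 ratios of -0.14, -0.86, -0.60 and -0.80, none past 2-fold. Its levels with dox, 8.80, 23.8, 36.8 and 53.2 FPKM from 0, 24, 48 and 96 h, still ran upward with the start time. Klf3 had the narrowest range with dox, from 54.0 to 89.5 FPKM, a ratio of 1.66, and the ratio of +dox to –dox was larger at each later start, from -0.14 to 1.61 on the log2 scale. The –dox value stands in both the dox comparison and the comparison with the starting cells, so those 2 sets of ratios share it and are not independent.

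**Figure D5:**
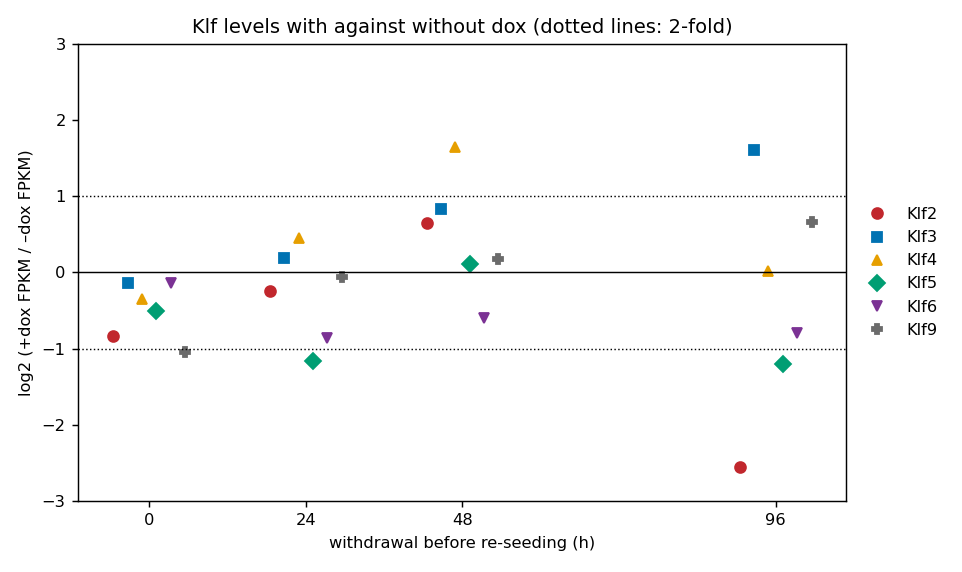
Each point is the log2 ratio of the +dox to the –dox FPKM of 1 gene, against hours of withdrawal before re-seeding, with points of a start time set side by side for legibility. Klf4 from 48 h (1.64) and Klf3 from 96 h (1.61) lie above the upper 2-fold line, and Klf2 from 96 h (-2.56) lies farthest below the lower one.

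Over all 15 conditions, the highest and lowest values were 109.7-fold apart for Klf2, 61.0-fold for Klf4, 22.8-fold for Klf5, 10.6-fold for Klf6, 4.37-fold for Klf3 and 4.17-fold for Klf9. The following correlations describe log2(FPKM + 1) over these 15 conditions, which share the time of withdrawal and the cell line, and they carry no p-value. Among the members, Klf4 and Klf5 ran closest together (Pearson r = 0.86), followed by Klf2 and Klf5 (0.78) and Klf2 and Klf4 (0.75). Klf6 had a negative value with each of the other 5, lowest with Klf2 (-0.60).

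Among genes that reached 10 FPKM, those most like each member were found by the same measure. They were Ephx2, Cnpy1 and Sox2 for Klf2 (r = 0.94 for each), Map7, Sh3d19 and BC052040 for Klf3 (0.93 to 0.95) and Grhl3, Mapt and Sik1 for Klf4 (0.95 to 0.96). For Klf5 they were Socs3, Mapt and Stat3 (0.89 to 0.90), and for Klf6 they were Ilk, Jun and AI661453 (0.96 to 0.97). For Klf9 they were Epha2, Mtrr and Dtd2 (0.89 to 0.91).

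Their levels show what the likeness rests on. Sox2 ran from 248 FPKM at 0 h to 33.0 at 96 h and Socs3 from 43.5 to 7.70. Both were also high in cells re-seeded from 0 h –dox, which had no withdrawal, at 224 and 73.6 FPKM. Sox2 is an OSKM gene, so its +dox values may include transgene reads. Jun, an AP-1 subunit, ran from 4.17 FPKM at 0 h to 17.3 at 96 h and stood at 28.3 in cells re-seeded from 96 h –dox, where Klf6 also had its highest value. Epha2, a receptor tyrosine kinase, had its lowest value, 1.76 FPKM, in those cells, as did Klf9. With Spearman's rho in place of Pearson's r, the genes named changed for each member: of 3 genes, 1 was shared for Klf2, 2 for Klf3, 0 for Klf4, 1 for Klf5, 0 for Klf6 and 2 for Klf9.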

How the data were processed

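According to the methods and the submitters' processing notes, the authors aligned reads to the mm10 genome by TopHat 2.0.14. They measured expression of Gencode M4 transcripts, limited to 6 biotypes and a length of 200 bp or more, by Cuffquant (Cufflinks 2.2.1), and Cuffdiff then combined the replicates. The deposited table holds FPKM values, 1 per gene and condition, and is named RPKM. How libraries were scaled, and whether strand was used, is not given in the sources used here. Another 5 columns of the table hold the authors' calls of dynamic and dox-responsive genes and were not used.

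Values were read with Python 3.11.15, numpy 2.4.6, pandas 2.3.3 and scipy 1.17.1, and plotted with matplotlib 3.10.9. Ratios had no pseudocount and required 1 FPKM in the higher value, and genes at 0 in 1 of the values could be called but were left out of medians. Groups came from the labels. The planned tests need a value per sample, so the fold rule planned for 1 value per condition was used. The members and the gene lists (other Klf, Sp, naive and core pluripotency, formative pluripotency, LIF–Stat3, ERK response, immediate early, glucocorticoid response, fibroblast, endothelial, extraembryonic endoderm, mesoderm, neurectoderm, trophoblast and simple epithelium) were written from general knowledge and chosen with earlier results of these data known. Named genes are the members, the genes of these lists and, for each member, the 3 genes reaching 10 FPKM with the highest Pearson correlation of log2(FPKM + 1) over 15 conditions. Gene positions came from Gencode M21 on mm10, which held 21322 of the 22475 symbols. Gm20033 was named for its overlap with Klf3 and Myc as an OSKM gene. Some lists share a gene. Hand1 is on the mesoderm and trophoblast lists, Junb on LIF–Stat3 and immediate early, and Egr1 on ERK response and immediate early. Alternatives were the fold, the minimum, 1 FPKM added to both values, scaling by median ratios, Spearman's rho and, chosen after seeing the data, a start at 24 h. The counting, scaling and likeness steps were tested on simulated data.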

Additional observations from a re-analysis of the deposited data

How the results depend on the processing

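The counts of members depended on the fold. At 1.5-fold in place of 2-fold, 5 members were lower and 1 was higher at 96 h than at 0 h. Between any pair of timepoints, 6 differed. At that fold, 5 ratios of +dox to –dox were higher and 8 lower, and 11 ratios of –dox to the starting cells were higher and 3 lower. At 3-fold, 3 members were lower and 0 higher at 96 h, and 4 differed between any pair of timepoints. At that fold, 2 ratios of +dox to –dox were higher and 1 lower, and 4 ratios of –dox to the starting cells were higher and 0 lower. In each of these cases the alternative's own threshold sets the count. The percentage of all genes at these folds was not counted. No minimum, 1 FPKM required in both values, 1 FPKM added to both values and scaling by median ratios each left all 7 counts as reported. A start at 24 h gave 3 lower, 1 higher and 4 that differed between any pair of timepoints. The percentage of all genes was not counted for that last number. Over the 84 ratios of members, adding 1 FPKM moved the log2 ratio by up to 0.71 with 0 changes of sign, and scaling by up to 0.04 with 1 change of sign, in a ratio within 2-fold. No paired analysis was possible because each value combines both replicates, and leaving out each replicate was not run for the same reason. Depth is unknown, so the precision of low values, such as those of Klf4 from 60 h on, cannot be given.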
